A study of Mus musculus with 18 samples.

Results

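Gdf15, which encodes growth differentiation factor 15, was followed through the mammary glands of Cip2a-/- and wild-type (WT) mice before and after dosing with the carcinogen DMBA (7,12-dimethylbenz[a]anthracene). It is 1 of 23337 gene symbols in the deposited count table and 1 of 15482 that passed the filter on low counts. It was chosen because its level 2 weeks after DMBA was known from these same libraries, so the change between untreated and 2-week glands, and the change between 2-week and endpoint glands, are given below as descriptions with no test. RNA of whole mammary gland tissue, from which the labels say lymph nodes were excluded, was sequenced in 18 libraries, 3 in each of 6 groups, from mice on a mixed C57BL/6Jx129 background. The groups were Cip2a-/- and WT glands of untreated mice, Cip2a-/- and WT glands taken 2 weeks after the last DMBA dose, and, at the endpoint, Cip2a-/- and WT glands free of tumour from mice killed once DMBA had caused a tumour in some tissue. Treated mice of both genotypes received 1 mg of DMBA in oil by gavage in each of 6 weekly doses, the first at an age of 12 to 14 weeks. The sources used here give no oil-only group and no age for the untreated or endpoint mice, so the effects of DMBA, of the gavage and of age cannot be told apart. The labels do not state that the libraries of a group came from separate animals, and p-values measure only the spread between these libraries.

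GDF15 is a distant member of the transforming growth factor beta superfamily. Cells make it as a precursor, cut it with furin-like convertases and release it as a dimer, and it circulates as a signal of tissue and mitochondrial stress. Its receptor is GFRAL, which signals with the co-receptor RET in neurons of the hindbrain, where it lowers food intake. Transcription of the gene is known to be raised by p53 after DNA damage and by ATF4 and CHOP, encoded by Atf4 and Ddit3, in the integrated stress response. DMBA is converted by cytochrome P450 enzymes into metabolites that form DNA adducts. The product of Cip2a inhibits the phosphatase PP2A.

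Total counts per library ranged from 16121743 to 24586404. Cip2a, listed under its older symbol C330027C09Rik, had 2, 0 and 0 reads in all in the Cip2a-/- untreated, 2-week and endpoint groups, against 86, 203 and 202 reads in the WT groups, and the genotype labels matched in all 18 libraries. The markers of luminal epithelium (14 genes) summed to between 710.8 and 4116 CPM (reads scaled to a common library size) in 17 libraries and to 56.1 CPM in WT endpoint library 1, which also had 8482 CPM of brown adipocyte markers (7 genes) and 38131 CPM of skeletal muscle markers (8 genes). The same library had 458 CPM of lymph node stroma markers (5 genes), 1983 CPM of B cell markers (7 genes) and 658 CPM of T cell markers (7 genes), and Cip2a-/- untreated library 3 had 209.7, 816.6 and 373 CPM of the same lists. In the other 16 libraries these lists reached at most 63.7, 580.2 and 190.9 CPM. Skeletal muscle markers ranged elsewhere up to 60949 CPM, in Cip2a-/- 2-week library 1, and down to 16.4 CPM, in Cip2a-/- endpoint library 2. Each column header also carries a number of unstated meaning. These numbers are larger for the 2-week libraries than for all the others and cannot be told apart from the 2-week condition.

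Gdf15 (Entrez 23886) lies on the minus strand of mouse chromosome 8 at 70629393 to 70632456 in GRCm38, the assembly also called mm10. Its RefSeq promoter windows, of 300 bases each, are at chr8:70632407-70632706 and, for a second start site, at chr8:70632046-70632345. The part of the first window upstream of every annotated transcript is shown because p53 and ATF4 are both known to act on this gene. It is given on the gene's strand, 5′ to 3′, at chr8:70632471-70632706 (RefSeq, GRCm38.p6), in lower case throughout because none of the 7 motifs searched was found in it.
Gdf15 upstream window: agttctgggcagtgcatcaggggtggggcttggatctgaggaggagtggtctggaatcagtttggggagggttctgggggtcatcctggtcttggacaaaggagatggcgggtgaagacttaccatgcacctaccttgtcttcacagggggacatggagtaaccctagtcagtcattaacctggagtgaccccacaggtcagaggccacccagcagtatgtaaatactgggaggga
The motifs, searched on both strands in 32851 promoter windows of the same length, were the p53 half-site (in 8.36% of windows), the AP-1 site TGANTCA (7.81%), the cAMP response element TGACGTCA (1.79%), the C/EBP-ATF response element TGATGNAA (3.97%), the E-box CACGTG (7.15%), the GC box GGGCGG (35.7%) and the dioxin response element core GCGTG (32.4%). Of these, the second Gdf15 window held the E-box, at chr8:70632173-70632178. No match says only that these letters are not in these windows.

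In untreated glands Gdf15 was near the bottom of the measured range. The Cip2a-/- untreated libraries held 3, 6 and 15 Gdf15 reads, or 0.179, 0.330 and 0.869 CPM. The WT untreated libraries held 13, 11 and 7 reads, or 0.564, 0.614 and 0.388 CPM. The genotypes overlapped, and counting error alone was wide at this depth: the 3 reads of Cip2a-/- untreated library 1 have an exact Poisson 95% interval of 0.0370 to 0.524 CPM. Per kilobase of exon, between 3.42% and 11.4% of the 14023 tested genes with an annotated exon length were below Gdf15 in an untreated library.

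2 weeks after the last dose Gdf15 was a moderately expressed gene. The Cip2a-/- 2-week libraries held 371, 475 and 292 reads, or 25.4, 20.1 and 13.5 CPM. The WT 2-week libraries held 90, 179 and 594 reads, or 4.33, 8.32 and 24.99 CPM. All 6 libraries were above all 6 untreated libraries, and between 33.1% and 75.4% of those 14023 genes were below Gdf15 per kilobase of exon. In bulk tissue a different number of cells of a type and a different amount of RNA per cell cannot be told apart. The mean was 42.9 times that of untreated glands in Cip2a-/- mice and 24.0 times in WT mice. On the log2 scale of the edgeR fit the change was 5.40 ± 0.76 in Cip2a-/- glands, 4.57 ± 0.73 in WT glands and 4.99 ± 0.53 averaged over genotypes (SE, n = 3 libraries a group). In that averaged contrast 0.0258% of all genes tested, or 4 genes, passed an adjusted p of 0.05 in either direction, and the median log2 change over all genes was -0.000485. WT 2-week library 3 carries much of the WT change, which was 3.58 on the log2 scale without it, and the Cip2a-/- change was 6.23 without Cip2a-/- untreated library 3, the one rich in lymphoid markers.

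**Figure D1:**
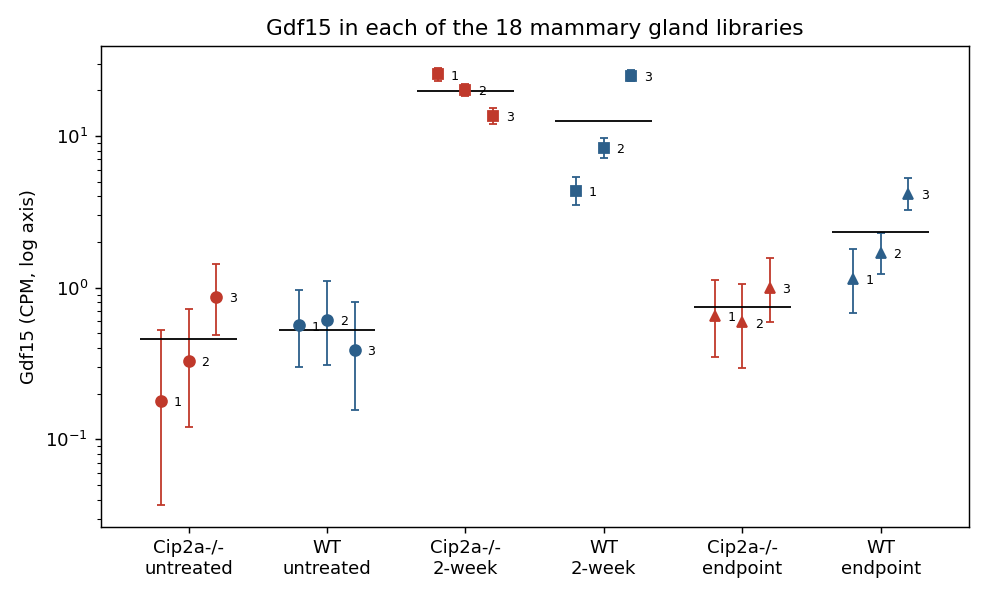
Gdf15 level in each of the 18 libraries, in CPM on a log axis, by condition with Cip2a-/- left of WT; points are libraries, error bars their exact Poisson 95% intervals, which cover counting error only, and horizontal lines the group means. The 2-week libraries sit between 4.33 and 25.4 CPM, above every untreated library.

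At the endpoint Gdf15 was low again in Cip2a-/- glands and intermediate in WT glands. The Cip2a-/- endpoint libraries held 13, 11 and 18 reads, or 0.652, 0.591 and 0.996 CPM. The WT endpoint libraries held 18, 44 and 66 reads, or 1.14, 1.70 and 4.17 CPM. Every Cip2a-/- endpoint library was below every WT endpoint library, and every endpoint library of either genotype was below every 2-week library. Relative to 2-week glands the log2 change was -4.71 ± 0.73 in Cip2a-/- glands and -2.43 ± 0.66 in WT glands (SE), which corresponds to mean levels of 0.0379 and 0.186 times those at 2 weeks. The WT value was -1.44 without WT 2-week library 3. Ordered by mean, the groups were Cip2a-/- 2-week (19.7 ± 5.95 CPM), WT 2-week (12.5 ± 11.0), WT endpoint (2.34 ± 1.61), Cip2a-/- endpoint (0.746 ± 0.218), WT untreated (0.522 ± 0.119) and Cip2a-/- untreated (0.459 ± 0.362; SD, n = 3 each). Neighbours in that order overlapped except WT 2-week with WT endpoint, whose nearest libraries had 4.33 and 4.17 CPM, and WT endpoint with Cip2a-/- endpoint.

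The comparison of endpoint with untreated glands asks whether Gdf15 was above its untreated level at the endpoint, whose time after the last dose is unstated. The untreated libraries are shared with the contrast by which the gene was chosen. Averaged over genotypes the level was higher at the endpoint by 1.42 ± 0.49 on the log2 scale (SE), and did not pass edgeR's quasi-likelihood test after Benjamini-Hochberg adjustment (adjusted p = 0.169). The share of genes with an unadjusted p under 0.05 in this contrast, in either direction, was 16.9%. The exact two-sided permutation test within genotypes gave p = 0.015, where 0.005 is the smallest it can give, and 0.105 after adjustment over the 7 permutation tests of Gdf15. In WT glands the difference was 2.14 ± 0.68 (edgeR adjusted p = 0.266), with all 3 endpoint libraries above all 3 untreated ones. In Cip2a-/- glands it was 0.69 ± 0.70 (edgeR adjusted p = 0.626) and the libraries overlapped. The difference between those changes was -1.45 ± 0.97 (edgeR adjusted p = 0.561), so a genotype difference in the endpoint level relative to untreated glands did not hold up.

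Loss of Cip2a was tested on Gdf15 in each condition, and no difference passed in edgeR's quasi-likelihood test after adjustment over all genes. In untreated glands the log2 difference, Cip2a-/- minus WT, was -0.18 ± 0.71 (adjusted p = 1.00). In 2-week glands it was 0.65 ± 0.62 (adjusted p = 1.00). The Cip2a-/- libraries had a narrower spread there, with the highest 1.88 times the lowest, against 5.77 times in WT. The mean ratio of Cip2a-/- to WT was 1.57 at 2 weeks, and the log2 difference was 1.64 without WT 2-week library 3 and 0.24 without WT 2-week library 1. The change of the 2-week level relative to untreated glands differed between genotypes by 0.83 ± 0.94 (edgeR adjusted p = 0.999).

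Of the 3 conditions the genotype difference was largest at the endpoint, where Cip2a-/- glands had 0.322 times the Gdf15 of WT glands (95% interval 0.130 to 0.795). That interval is a normal approximation from the SE, without adjustment over genes, and is narrower than the F-test would give. The log2 difference was -1.64 ± 0.67, with an edgeR p of 0.0272 before and 0.458 after adjustment. In that contrast 10.7% of the genes were under 0.05 before adjustment, in either direction, and 0.00646% after it. The exact two-sided permutation test gave p = 0.1, the smallest that 3 against 3 libraries allow, or 0.233 over the 7 tests. WT endpoint library 3 carries much of it: without that library the difference was -0.92, and without WT endpoint library 1, which stands apart by its markers, it was -1.995.

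**Figure D2:**
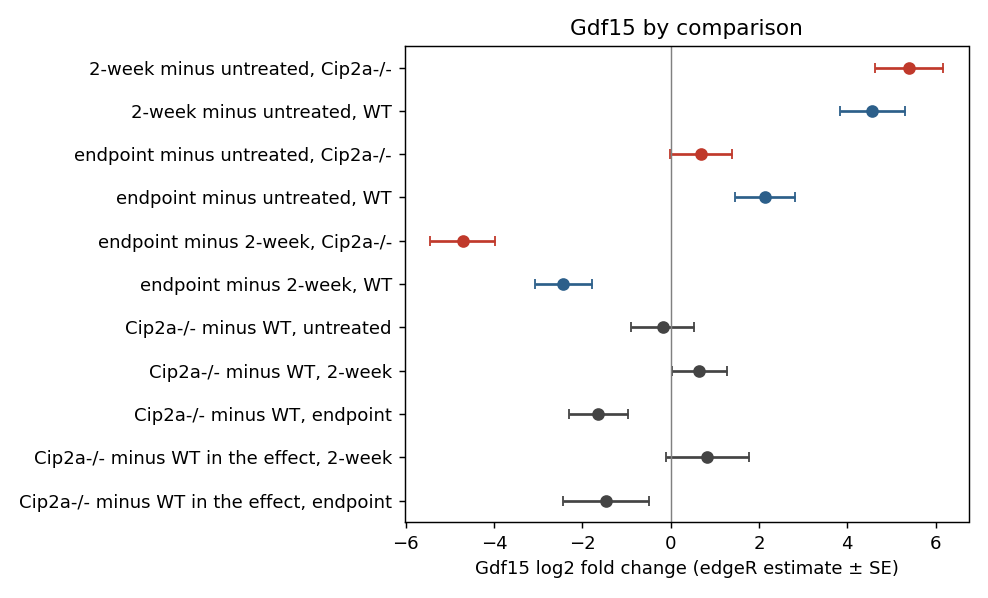
Log2 difference of Gdf15 in each contrast of the edgeR fit, with its standard error as bars; red marks changes within Cip2a-/- glands, blue changes within WT glands and grey differences between the genotypes, the last 2 of which compare the changes from untreated glands. The 2-week changes of 5.40 and 4.57 lie apart from the genotype differences, which are between -1.64 and 0.83.

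Several cell type markers also differed between the genotypes at the endpoint, at an unadjusted edgeR p under 0.05. Their part in the Gdf15 difference was not tested. The brown adipocyte markers summed to 8482, 32.4 and 195.3 CPM in WT endpoint libraries 1, 2 and 3. In Cip2a-/- endpoint glands they summed to between 76.3 and 214.6 CPM. WT endpoint library 1 was also the highest endpoint library for B cell, T cell, skeletal muscle and lymph node stroma markers. It was the lowest of its group for Gdf15. The B cell markers summed to between 5.9 and 50.5 CPM in Cip2a-/- endpoint glands and between 5.1 and 1983 CPM in WT endpoint glands, and all 7 were lower at an unadjusted p under 0.05, against 6.67% of all genes. Of the T cell markers 6 of 7 were lower in Cip2a-/- glands at that level, of the brown adipocyte markers 4 of 7, of the skeletal muscle markers 3 of 8 and of the lymph node stroma markers 2 of 4. Of the fibroblast markers 3 of 7 were higher at that level, against 4.05% of all genes. Of the luminal and basal epithelial markers 0 of 14 and 0 of 9 were under 0.05, but their levels shifted unevenly. The luminal markers summed to 3815, 1754 and 4116 CPM in Cip2a-/- and to 56.1, 3744 and 792 CPM in WT endpoint libraries 1, 2 and 3. The basal markers (9 genes) summed to 2520, 1302 and 2249 CPM in Cip2a-/- and to 333, 2560 and 453 CPM in WT endpoint libraries. WT endpoint library 2 was thus among the richest in epithelial markers, and the other two were the poorest of the 6 endpoint libraries. The macrophage markers (10 genes) summed to 1530, 395 and 1349 CPM in Cip2a-/- and to 1659, 621 and 2168 CPM in WT endpoint libraries 1, 2 and 3. Among the 6 endpoint libraries WT endpoint library 3 was highest both for Gdf15 and for these markers. WT endpoint library 2, next in Gdf15, had less of these markers than Cip2a-/- endpoint libraries 1 and 3. None of the 10 macrophage markers had an unadjusted p under 0.05 between the genotypes.

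The p53 targets shared the outline of Gdf15 in the 2-week glands. The list holds 31 genes without Gdf15, all of which were tested. Between 2-week and untreated glands, averaged over genotypes, 29 of the 31 had a positive log2 change, and the median was 0.70, against -0.000485 over all genes, of which 49.9% were positive. edgeR called none of the 31 after adjustment, against 0.0194% of all genes called higher, and limma voom called none, while DESeq2 called 12, against 0.37% of all genes. At an unadjusted p under 0.05 in edgeR 20 were higher and 0 lower, against 3.4% and 3.16% of all genes. The median was 0.93 in Cip2a-/- glands and 0.59 in WT glands. For the 2-week level of Cip2a-/- glands over WT glands the list median was 0.44, against 0.042 over all genes. Of the 31 genes 28 were positive, against 55.8% of all genes. edgeR called 0, against 0.00646% of all genes, and 4 were higher at an unadjusted p under 0.05, against 1.34%. Gdf15 and the list share their libraries, and the list was chosen with earlier results of these data known.

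Cdkn1a, which encodes the cell cycle inhibitor p21, followed the same outline. It had 1080.9, 654.7 and 431.6 CPM in Cip2a-/- 2-week libraries 1, 2 and 3, against 29.4, 43.8 and 65.2 CPM in Cip2a-/- untreated libraries. In WT it had 139, 164 and 695 CPM in 2-week libraries 1, 2 and 3, against 29.4, 38.5 and 84.6 CPM in untreated libraries. The 2-week libraries did not overlap with the untreated ones in either genotype, and the order among the 2-week libraries was that of Gdf15 in both. Its averaged log2 change was 3.34 ± 0.57 (edgeR adjusted p = 0.0632). Unlike Gdf15 it overlapped between 2-week and endpoint glands, with 496.4 CPM in Cip2a-/- endpoint library 3. It was 1.67 ± 0.53 higher at the endpoint than in untreated glands (edgeR adjusted p = 0.145). Averaged over genotypes Gdf15 was higher there by 1.42 ± 0.49 (edgeR adjusted p = 0.169), but the genotypes had the opposite order. Cdkn1a changed by 2.31 ± 0.77 in Cip2a-/- and by 1.04 ± 0.74 in WT glands. Gdf15 changed by 0.69 ± 0.70 in Cip2a-/- and by 2.14 ± 0.68 in WT glands. For neither gene did the genotype difference in this change pass edgeR's test after adjustment.

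Bax, which encodes a pore-forming protein of mitochondrial apoptosis, had the pattern most like that of Gdf15. It had 106.7, 106.8 and 81.8 CPM in Cip2a-/- 2-week libraries, against 28.3, 37.7 and 50.04 CPM in Cip2a-/- untreated libraries. In WT it had 46.4, 57.8 and 114.3 CPM in 2-week libraries, against 46.0, 36.0 and 36.9 CPM in untreated libraries. The 2-week libraries were above the untreated ones in both genotypes, although WT 2-week library 1 was barely so. Its averaged log2 change was 1.11 ± 0.21 (edgeR adjusted p = 0.0882). Eda2r, which encodes a receptor for ectodysplasin A2, had 67.9, 18.6 and 10.9 CPM in Cip2a-/- 2-week libraries and 7.56, 10.4 and 24.6 CPM in WT 2-week libraries, and its averaged change was 3.08 ± 0.54 (edgeR adjusted p = 0.074). Of the other genes of the list, Mdm2, which encodes the ubiquitin ligase that removes p53, changed by 1.03 ± 0.21, the p53-induced RNA-binding protein gene Zmat3 by 1.48 ± 0.25, and Trp53inp1, a stress protein gene, by 1.76 ± 0.37. Pmaip1, which encodes the apoptosis protein NOXA, had -0.57 ± 0.62.

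13 of the 31 p53 targets fell between 2-week and endpoint glands, averaged over genotypes, in edgeR's test after adjustment, against 6.94% of all genes called lower, and the list median was -0.64, against 0.05 over all genes. The count was 8 without Cip2a-/- 2-week library 1, 8 without WT 2-week library 3 and 4 when only the 2-week and endpoint groups were fitted. The 13 were Mdm2, Bax, Bbc3, Ccng1, Zmat3, Trp53inp1, Eda2r, Ei24, Gtse1, Aen, Polk, Dcxr and Rps27l. Eda2r had the steepest change, -2.90 ± 0.54 (edgeR adjusted p = 0.00805). Cdkn1a, at -1.67 ± 0.53, had an edgeR adjusted p of 0.051 and was not called. Relative to untreated glands the list median at the endpoint was 0.05, against 0.02 over all genes, and 19 of 31 were positive, against 52.2%. Here edgeR called 0, and 3 were higher at an unadjusted p under 0.05, against 9.51% of all genes. Between 2-week and endpoint glands the fibroblast markers were also lower, 6 of 7 called, against 6.94% of all genes. The neutrophil markers, 5 of 6 called, and erythroid markers, 3 of 3 called, were higher, against 6.41% of all genes. The part of these markers in the changes was not tested.

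**Figure D3:**
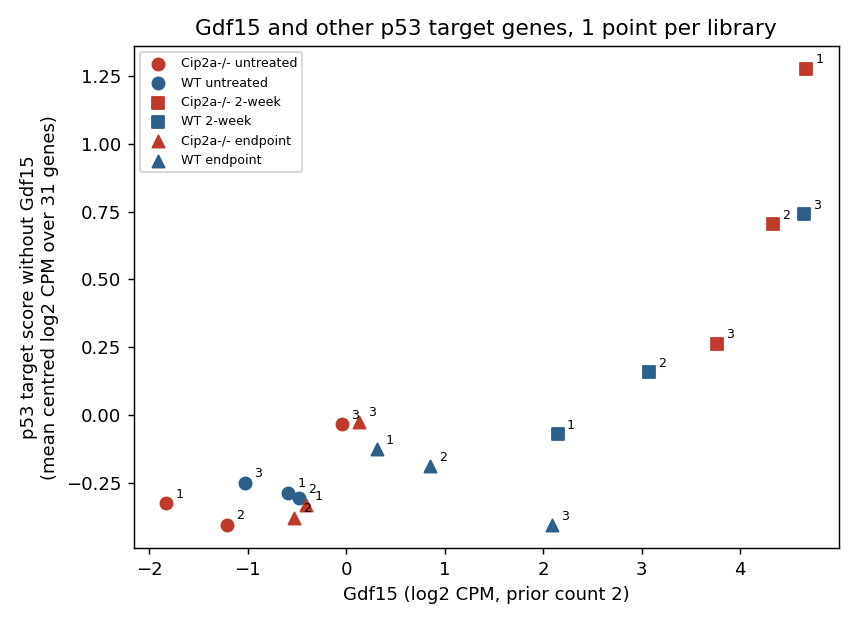
Mean centred log2 CPM of 31 p53 targets that do not include Gdf15 (vertical axis) against the log2 CPM of Gdf15 (horizontal axis); each point is a library, coloured by genotype and shaped by condition, with its replicate number. The correlation over 18 libraries was 0.85, and 0.59 after group means were removed. These values are descriptions, since Gdf15 was chosen with its 2-week level known. WT 2-week library 1, at 2.15 on the Gdf15 axis, lies close to WT endpoint library 3, at 2.10, on that axis.

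Averaged over the 31 genes, the p53 score (the mean log2 CPM after each gene was centred) was 1.28, 0.70 and 0.26 in Cip2a-/- 2-week libraries 1, 2 and 3, and -0.07, 0.16 and 0.74 in WT 2-week libraries 1, 2 and 3. The libraries had the same order as for Gdf15 in 3 of the 6 groups, both 2-week groups and the Cip2a-/- endpoint group. The order was opposite in the WT untreated group and differed in the Cip2a-/- untreated group, where counts of Gdf15 were lowest. In the WT endpoint group it was also opposite, with scores of -0.13, -0.19 and -0.41 in libraries 1, 2 and 3 where Gdf15 had 1.14, 1.70 and 4.17 CPM. WT endpoint library 3, the highest endpoint library for Gdf15, was thus the lowest of that group for the p53 score. With 3 libraries a group such an order has few possible outcomes. Pearson's r between Gdf15 and the score was 0.85 and Spearman's rho 0.77 over all 18 libraries, and r was 0.59 within groups. Other lists were closer within groups, with r of 0.84 for the Nrf2 targets (0.59 over the 18 libraries) and 0.63 for the transcription factors reported at the GDF15 promoter (0.38). The macrophage markers were nearly as close, at 0.55 (0.26). The genes of the list and Gdf15 share these libraries and their scaling.

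The genes most like Gdf15 were ranked by Pearson's r of log2 CPM over the 18 libraries among 13213 genes with a mean of at least 1 CPM, symbols of unnamed gene models left out. The 10 most like were Bax (r = 0.91), Zmat3 (0.87), Eda2r (0.87), Ei24 (0.86), Cdkn1a (0.86), Cox6b2 (0.84), Slc19a2 (0.84), Gtse1 (0.82), Mdm2 (0.82) and Dcxr (0.82). 8 of the 10 are on the p53 list. Cox6b2, a cytochrome c oxidase subunit, and Slc19a2, a thiamine transporter, are not. Without the 2 libraries farthest from the median of Gdf15, Cip2a-/- 2-week library 1 and WT 2-week library 3, r was 0.85 for Bax and 0.73 to 0.81 for the others. With group means removed, r was 0.84 for Bax and Dcxr, 0.68 for Cdkn1a and 0.43 for Mdm2. Ranked by that within-group r the order was different. The first 5 were Siva1 (0.88), Fbxo6 (0.87), Bax, Dcxr and Nat14 (0.81), while Zmat3 was 101st, Eda2r 574th and Mdm2 843rd.

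**Figure D4:**
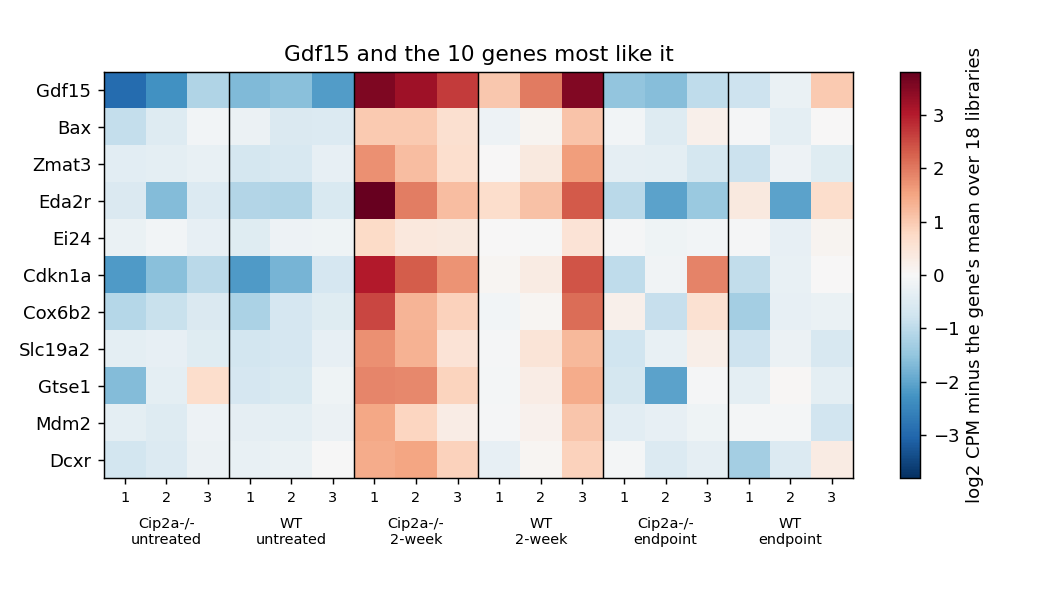
Heat map of log2 CPM minus the gene's mean (colour) for Gdf15 and the 10 genes most like it (rows) in the 18 libraries (columns), grouped by condition with Cip2a-/- left of WT. Bax, Zmat3 and Cdkn1a share the peak of Gdf15 in the 2-week libraries, and Cdkn1a also stands high in Cip2a-/- endpoint library 3.

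Of the 8 like genes on the p53 list, 7 have a RefSeq promoter window and 5 hold a p53 half-site in it, against 9.55% of all 27025 genes with a window and 11 of 21 genes of the p53 list. Each is shown with the half-site in capitals in 30 bases of the gene's strand (RefSeq, GRCm38.p6), to set beside the Gdf15 window, in which none was found. Bax is at chr7:45467080-45467109, Ei24 at chr9:36797325-36797354, Cdkn1a at chr17:29090918-29090947, Gtse1 at chr15:85859945-85859974 and Mdm2 at chr10:117710925-117710954.
Bax: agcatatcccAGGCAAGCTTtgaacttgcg
Ei24: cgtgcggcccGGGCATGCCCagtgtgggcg
Cdkn1a: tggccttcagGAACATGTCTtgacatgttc
Gtse1: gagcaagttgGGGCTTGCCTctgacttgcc
Mdm2: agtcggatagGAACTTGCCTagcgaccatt
The window of Cdkn1a holds a further half-site. A match is a description of letters, and no binding was measured.

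The integrated stress response list stayed near the median of all genes at 2 weeks. Its 27 genes, which include Atf4, Ddit3 and their targets, had a median log2 change of -0.03 between 2-week and untreated glands, averaged over genotypes, with 12 of 27 positive and 0 called by edgeR or DESeq2. At an unadjusted p under 0.05 1 was higher and 1 lower, or about the share of all genes (3.4% and 3.16%). The higher one was Sesn2, a stress-induced sestrin that is also on the p53 list, at 0.95 ± 0.32, and the lower one was Shmt2, a mitochondrial serine enzyme gene, at -0.51 ± 0.18. The secreted-protein gene Stc2 was 0.99 ± 0.51, the amino acid transporter gene Slc7a5 -0.70 ± 0.49 and Cth, a gene of cysteine synthesis, 0.63 ± 0.53. Atf4 was 0.14 ± 0.13 and Ddit3 -0.08 ± 0.15. Fgf21, another stress hormone, was 0.13 ± 0.75. The correlation of Gdf15 with the list score was 0.09 over the 18 libraries.

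At the endpoint, Ppp1r15a, whose product GADD34 reverses the eIF2alpha phosphorylation of this response, rose by 1.05 ± 0.19 relative to untreated glands (edgeR adjusted p = 0.0353), against 0.0258% of all genes called higher. It had 42.8, 54.8 and 112.2 CPM in Cip2a-/- endpoint libraries, against 24.4, 23.7 and 32.5 CPM in Cip2a-/- untreated libraries. In WT it had 51.6, 45.5 and 63.0 CPM in endpoint libraries, against 34.3, 31.6 and 31.8 CPM in untreated libraries. The endpoint libraries did not overlap with the untreated ones in either genotype, and the list median was 0.24. Between endpoint and 2-week glands 5 genes of the list were called higher, namely Pck2, Ppp1r15a, Slc3a2, Slc7a5 and Herpud1, against 6.41% of all genes called higher, while Gdf15 was lower.

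**Figure D5:**
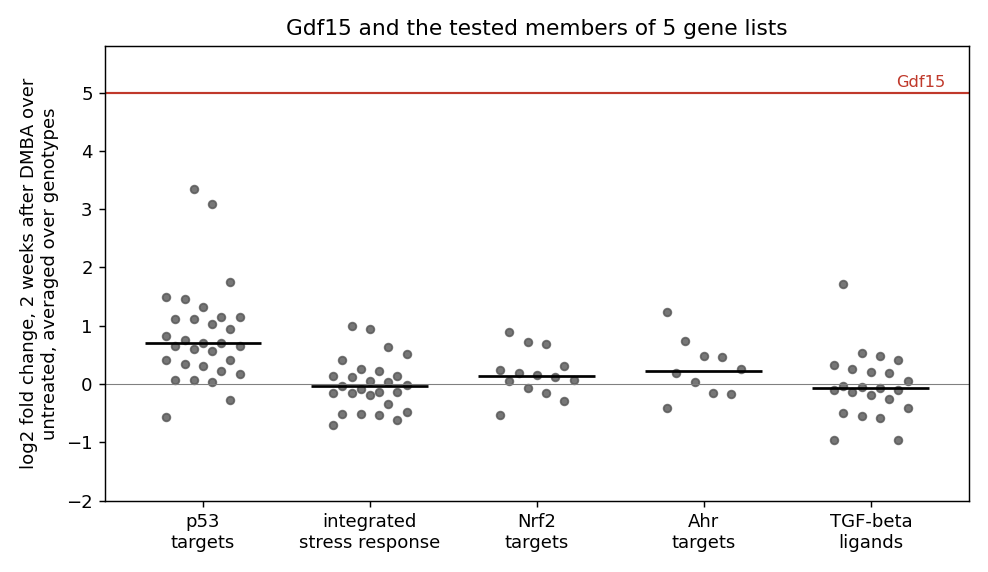
Log2 change between 2-week and untreated glands, averaged over genotypes, of each tested gene (points) in 5 gene lists, with black lines at the list medians and a red line at the value of Gdf15. The p53 targets have a median of 0.70 and the integrated stress response genes one of -0.03, against 4.99 for Gdf15.

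The receptor of GDF15 was close to absent from the gland. Gfral had 1 read in all 18 libraries, in WT 2-week library 1. Its co-receptor gene Ret averaged 32.4 CPM over all libraries and was -0.12 ± 0.47 between 2-week and untreated glands. Relative to 2-week glands Ret fell at the endpoint by 1.55 ± 0.49 (edgeR adjusted p = 0.0494). The related receptor genes Gfra1, Gfra2, Gfra3 and Gfra4 were at -0.35 ± 0.38, -0.19 ± 0.32, -0.49 ± 0.28 and -0.04 ± 0.34 at 2 weeks, none called. Furin, Pcsk5, Pcsk6, Pcsk7 and Mmp14, which encode furin-type convertases and a membrane metalloproteinase, were expressed, with Furin at a mean of 156.0 CPM and a 2-week change of -0.08 ± 0.17. None of the 5 was called.

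Among the other genes on the list of superfamily ligands none was called. The list includes Bmp1, which encodes a metalloproteinase and not a ligand, and the counts and ranks below include it. Of the 33 listed genes, 23 passed the filter. Their median log2 change at 2 weeks was -0.07, with 0 called by edgeR and 0 at an unadjusted p under 0.05 in either direction. Tgfb3 was at -0.54 ± 0.54, Bmp7 at -0.50 ± 0.56, Gdf3 at -0.58 ± 0.54 and Mstn, the myostatin gene of muscle, at 0.53 ± 1.65. Ranked by mean CPM per kilobase of exon among these genes and Gdf15, 34 in all, Gdf15 was 6th in both 2-week groups. It had 10.6 in Cip2a-/- and 6.78 in WT glands. It was 20th in Cip2a-/- and 21st in WT untreated glands, and 16th in Cip2a-/- and 12th in WT endpoint glands. Inhbb led at 2 weeks, with 24.6 in Cip2a-/- and 31.3 in WT, and Tgfb3 led in the other groups.

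In the other lists 1 gene was called between 2-week and untreated glands. The 10 tested genes listed as targets of the aryl hydrocarbon receptor, which DMBA and other hydrocarbons activate, had a median of 0.23. From that list the called gene was Ephx1, which encodes microsomal epoxide hydrolase, at 1.23 ± 0.17 (edgeR adjusted p = 0.0216). Activity of the receptor was not tested. Ephx1 had 344.2, 406.8 and 295.4 CPM in Cip2a-/- 2-week libraries, against 100.6, 97.8 and 111.3 CPM in Cip2a-/- untreated libraries. In WT it had 174.1, 212.4 and 368.8 CPM in 2-week libraries, against 134.9, 148.4 and 182.3 CPM in untreated libraries, and those groups overlapped. Cyp1a1, which encodes a DMBA-metabolising enzyme, was 0.74 ± 0.79, Ugt1a6a 0.48 ± 0.42 and the receptor's repressor gene Ahrr 0.46 ± 0.33. The 14 Nrf2 targets had a median of 0.14 with 0 called and 2 higher at an unadjusted p under 0.05, against 3.4% of all genes, the stress gene Osgin1 at 0.89 ± 0.34 and the glutathione synthesis gene Gclc at 0.69 ± 0.24. Gsta3, a glutathione transferase gene, was 0.73 ± 0.51 and Slc7a11, a cystine transporter gene, -0.53 ± 0.89. Of the 25 transcription factor genes reported at the GDF15 promoter, with a median of 0.14 and 0 called, the hypoxia factor gene Hif1a was 0.61 ± 0.19, the immediate early genes Fos and Egr1 0.80 ± 0.42 and 0.62 ± 0.36, Ppara -0.71 ± 0.70, and Trp53, which encodes p53 itself, -0.34 ± 0.18. Among 9 tested stress and cachexia cytokines the median was 0.13 with 0 called, and 2 were lower at an unadjusted p under 0.05, against 3.16% of all genes, the inflammatory cytokine genes Il1b at -2.33 ± 0.73 and Tnf at -1.11 ± 0.43. Osm was -0.88 ± 0.70.

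Of the 23 genes within 200 kb that the table lists, 21 were tested, with a median 2-week log2 change of -0.07, 6 of 21 positive and 0 called by edgeR and 1, the interleukin receptor gene Il12rb1 at -1.56 ± 0.61, lower at an unadjusted p under 0.05, against 3.16% of all genes. Lrrc25, 7.91 kb away, was -0.14 ± 0.44, and Pgpep1, 14.0 kb away, was 0.28 ± 0.17. Between endpoint and 2-week glands 5 of the 21 were called higher, against 6.41% of all genes, while Gdf15 was lower.

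Between 2-week and untreated glands, averaged over genotypes, no cell type marker was called by edgeR, and those lower at an unadjusted p under 0.05 were 7 of 7 B cell, 3 of 5 mast cell and 1 of 4 lymph node stroma markers, against 3.16% of all genes. The B cell markers summed to between 1.4 and 239.7 CPM in Cip2a-/- and from 4.4 to 6.5 CPM in WT 2-week glands, against 21.8 to 816.6 CPM in Cip2a-/- and 14.9 to 580.2 CPM in WT untreated glands. The mast cell markers (6 genes) summed to between 61.3 and 143 CPM in Cip2a-/- and from 100.1 to 245.6 CPM in WT 2-week glands, against 149 to 301 CPM in Cip2a-/- and 197.6 to 359.8 CPM in WT untreated glands. The luminal epithelial markers had a median log2 change of 0.67 with 2 of 14 higher at that level, against 3.4% of all genes, and the macrophage markers one of 0.00 with 0 of 10. The part of any of these in the Gdf15 level was not tested. Correlations of Gdf15 with the list scores over the 18 libraries were 0.16 for luminal epithelium, 0.26 for macrophages and 0.35 for fibroblasts. They were -0.38 for lymph node stroma, -0.34 for mast cells, -0.33 for B cells, -0.31 for endothelium and -0.28 for neutrophils. The other marker lists lay between -0.22 and 0.12. After group means were removed the values were 0.21 for luminal epithelium, 0.55 for macrophages and 0.41 for fibroblasts. They were then -0.06 for lymph node stroma, 0.52 for mast cells, 0.03 for B cells, 0.01 for endothelium and 0.07 for neutrophils.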

How the data were processed

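The deposited table holds whole-number read counts for each gene symbol and library, per the file headers. RNA came from a NucleoSpin RNA kit and the libraries from a stranded TruSeq mRNA preparation, per the labels' protocols. The submitters' processing notes name bcl2fastq 2.17, STAR 2.5.2b, Subread 1.5.1 and mm10, and the sources used here give neither the annotation nor the strand setting of the counting. All that follows was computed from the counts. After filterByExpr (at least 10 counts, total at least 15) and TMM scaling, edgeR 4.0.16 in R 4.3.3 fitted quasi-likelihood models to the 18 libraries, with each of the 6 groups as a term. P-values were adjusted over the 15482 genes tested by the Benjamini-Hochberg method, and calls were made under 0.05. A standard error is the size of the log2 change divided by the square root of F. Log2 CPM used a prior count of 2. Gdf15 was also tested by exact permutation of log2 CPM in 7 comparisons. Intervals on CPM cover counting error alone, because the reads carry no molecular identifiers. The alternatives were DESeq2 1.42.0, its size factors in edgeR, limma 3.58.1 with voom, no filter, only the groups compared, a block for the replicate number and leaving out each library. Each list was reduced for naming to the 4 genes of largest 2-week change in size with a mean of 1 CPM or more and to genes called in a contrast, to which the 10 genes most like Gdf15 were added. A few others are named for their known role. Gdf15 and the gene lists were chosen with earlier results of these data known. The fit was also run on simulated counts, with changes set only in genes above a floor of mean counts. The spread between libraries was capped there, so it is no check at the full spread of these libraries.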

Additional observations from a re-analysis of the deposited data

How the results depend on the processing

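In the comparisons that did not serve to choose Gdf15, no test of it passed under any of the alternatives run. Over all its comparisons 354 of its 358 alternative values kept their direction and their side of the threshold or, where only described, moved by less than the spread between libraries. The genotype difference in untreated glands, from 24 and 31 reads, ranged from -1.01 to 0.16 on leaving out 1 library: it was 0.16 without Cip2a-/- untreated replicate 1 and 0.0051 without Cip2a-/- untreated replicate 2. The described 2-week change ranged from 5.03 to 6.23 in Cip2a-/- glands (6.23 without Cip2a-/- untreated replicate 3) and from 3.58 to 4.98 in WT glands. The endpoint genotype difference ranged from -1.995 to -0.92, with adjusted p between 0.136 and 1.00 over its alternatives, and the averaged endpoint change from 1.06 to 1.83, with adjusted p between 0.0629 and 0.430. The p53 targets called higher at 2 weeks numbered 0, against 12 by DESeq2, 1 with the replicate block, and 0 to 3 on leaving out 1 library; those lower at an unadjusted p under 0.05 numbered 0 to 1. The p53 targets called lower between 2-week and endpoint glands, a count recomputed after seeing the data, numbered 13, against 4 with only the groups compared, 8 to 15 on leaving out 1 library and 13 to 18 under the other settings. The integrated stress response genes higher at an unadjusted p under 0.05 numbered 1, against 2 by DESeq2, 4 with only the groups compared and 1 to 2 without 1 library; those lower numbered 1, against 3 with only the groups compared and 1 to 2 without 1 library. The causes were not tested. Counts over all genes depended on the setting: the averaged 2-week contrast gave 4, with 1 to 88 over the alternatives, the endpoint genotype contrast 1, with 0 to 88, the averaged endpoint contrast with untreated glands 39, with 2 to 842, and that with 2-week glands 2067, with 605 to 3256. Of 45 same-numbered pairs of libraries 17 had correlated deviations over 0.1 (median 0.000637, range -0.468 to 0.660). Pairs with different numbers were not set beside them, so whether replicate numbers pair the libraries cannot be told. With the replicate block the endpoint genotype difference was -1.51 and the 2-week one 1.05, and neither passed. With only the untreated groups Gdf15 did not pass the filter. In those groups a library held 3 to 15 reads, which limits what can be seen there.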
